A study of Arabidopsis thaliana and Cucumis sativus and Glycine max with 60 samples.

Results

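The differentiation zone (DZ) of the tomato root was compared with the elongation zone (EZ), its neighbour on the side of the tip, in 3 libraries of each, that is 6 of the 60 RNA sequencing libraries of the series. They came from tomato of the cultivar Heinz 1706, 6 days after plating on agarose-solidified medium in constant light, with no treatment or mutation named in the labels. The growing tip of the primary root had been divided into successive zones along its axis, a meristematic zone (MZ), the EZ and the DZ. The design text calls the 3 libraries of a zone biological replicates. The labels do not say whether they came from separate plantings, so the p-values measure the spread between these libraries, which may be technical. The members are the rows of the table whose IDs start with Solyc, which are 34673 of 311875 rows. The 3 MZ libraries entered the fit for the shared estimate of the spread, and by the median gene they varied less than the EZ and DZ libraries. In whole pieces of root, more cells of a type and more RNA per cell cannot be told apart.

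A growing root renews itself at its tip. Cells divide in the meristem, stop dividing and lengthen many times over in the EZ, and then mature in the DZ, where root hairs emerge, the endodermis lays down its Casparian strip and suberin, xylem vessels thicken their walls and nutrient uptake gets under way. The step from EZ to DZ is therefore the step from growth to function, and the comparison asks which part of the transcriptome goes with it.

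The table pairs no gene name with a tomato ID, and the reference used here covers Arabidopsis. For that reason genes are described by number, level and position in the ID order, the zones could not be checked against marker genes such as those of root hairs or dividing cells, and no promoter, transcript or protein sequence is shown. IDs are given for 2 genes that rose and 2 that fell.

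Of 19892 genes tested, 3537 (17.8%) were higher and 2298 (11.6%) lower in the DZ than in the EZ, at an adjusted p under 0.05 in limma and a change of at least 2-fold. The values are RPKM, a read density that takes account of how long a gene is and how deeply a library was sequenced. Changes are on the scale of log2(RPKM + 1), which understates the change of weakly expressed genes. Rises outnumbered falls more clearly among large changes. A change of at least 4-fold was seen in 1396 genes that rose and 546 that fell, of at least 16-fold in 201 and 58, and of at least 32-fold in 63 and 13. The median called rise was 1.77 and the median called fall -1.48 on the log2 scale, with median standard errors of 0.255 and 0.22. Over all genes tested the median change was 0.035. Quantile normalization, which forces all libraries to the same distribution of values, moved that median by -0.16 to -0.125 and gave 3036 rises and 2926 falls, so the excess of rises was smaller on that scale.

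**Figure D1:**
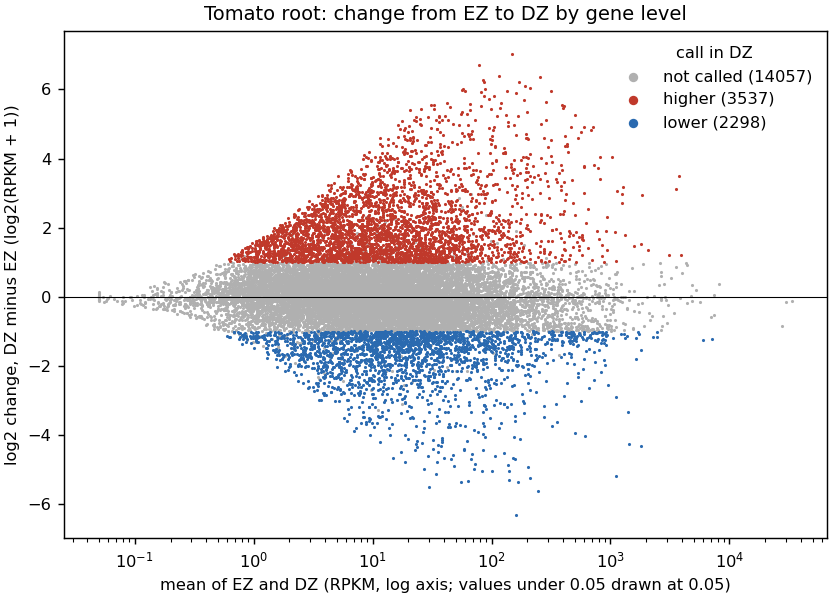
Change from EZ to DZ against gene level, with 1 point per tested gene. The horizontal axis is the mean of EZ and DZ in RPKM on a log scale, the vertical axis the log2 change of log2(RPKM + 1), and colours mark the 3537 genes called higher, the 2298 called lower and the 14057 not called. Rises reach further from 0 than falls.

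Many genes were held to a small change on the scale of log2(RPKM + 1). The added 1 RPKM pulls genes near 0 in both zones inside 2-fold, whatever their ratio. Of the genes tested, 1159 had a mean of EZ and DZ under 1 RPKM, and the median of that mean was 11.4 RPKM in the genes held inside 2-fold. In 8763 genes (44.1%) the 95% interval of the change lay inside 2-fold in either direction (from limma's standard errors), and 1527 of these still had an adjusted p under 0.05 in limma. Another 5294 genes (26.6%) were neither called nor held inside 2-fold, so that a change of that size was not settled with 3 libraries per zone. In 6117 genes (30.8%) every DZ library lay above every EZ library, and in 5439 (27.3%) every DZ library lay below. Among the called genes the zones did not overlap in 3470 of 3537 that rose (98.1%) and in 2259 of 2298 that fell (98.3%).

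The genes called higher in the DZ had low levels in the younger zones. Their median level was 19.9 RPKM in the DZ, 3.66 RPKM in the EZ and 1.44 RPKM in the MZ. By library, the median level of these genes was 2.99, 2.85 and 5.09 RPKM in EZ replicates 1, 2 and 3 and 19.1, 17.7 and 21.4 RPKM in the corresponding DZ replicates. EZ replicate 3 was thus the highest of the EZ libraries, and all 3 remained far below the DZ. The 3537 genes together took 3.69%, 4.7% and 7.66% of the RPKM of the EZ libraries and 23.1%, 23.4% and 26.6% of the DZ libraries. These genes were chosen by the same values, so the figures describe how much of the messenger pool they make up and carry no test.

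The genes called lower in the DZ were high in both younger zones. Their median level was 22 RPKM in the MZ, 27.9 RPKM in the EZ and 7.81 RPKM in the DZ. By library, the median level was 28, 29.1 and 25.4 RPKM in EZ replicates 1, 2 and 3 and 7.76, 7.05 and 8.38 RPKM in the DZ. They took 25.2%, 24.5% and 20.2% of the RPKM of the EZ libraries and 8.59%, 8.31% and 7.83% of the DZ libraries, against 28.4% to 29.9% in the MZ. In the EZ the genes called lower stood well above the genes called higher, which choosing them by the same values favours. The rising genes held about as large a part of the DZ libraries as the falling genes had held in the EZ. These figures too are descriptive and carry no test. Genes not called had a median of 10.8 RPKM in the EZ and 10.6 RPKM in the DZ.

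**Figure D2:**
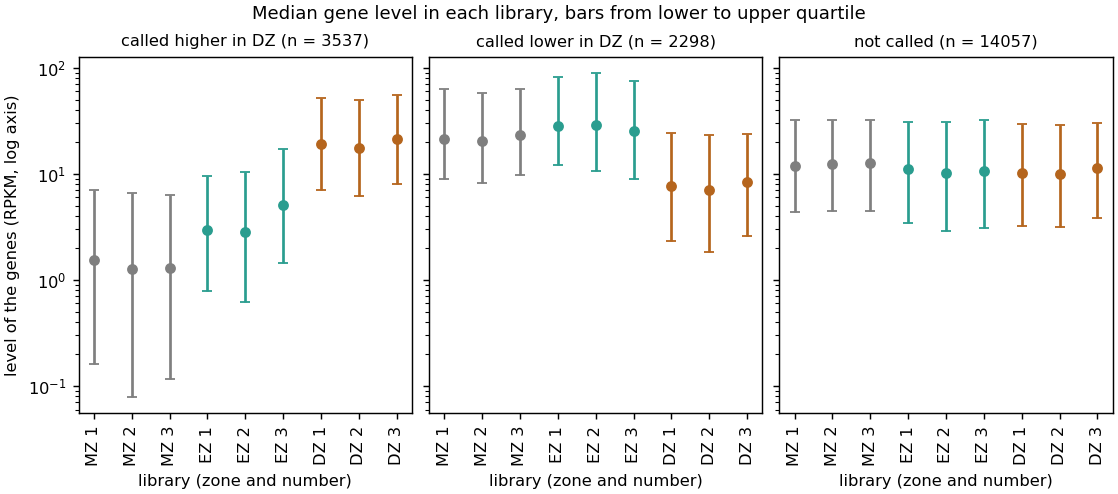
Level in each of the 9 libraries of the genes called higher, lower or not called in the DZ. Points are medians over genes in RPKM on a log axis, bars run from the lower to the upper quartile, and colours mark the zones. The genes called higher sit at medians of 1.26 to 1.54 RPKM in the MZ and 17.7 to 21.4 RPKM in the DZ, and the genes called lower at 25.4 to 29.1 RPKM in the EZ and 7.05 to 8.38 RPKM in the DZ.

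The balance of rises and falls changed with the level of the gene. Among 4724 genes with a mean of EZ and DZ from 1 to 5 RPKM, 19.6% rose and 8.32% fell. Among 5386 genes from 20 to 100 RPKM, 18% rose and 13.6% fell. Among 1812 genes from 100 to 1000 RPKM the numbers were close, with 17.9% higher and 18.8% lower, and at 1000 RPKM or more 16 of 121 genes rose and 20 fell. The median change went from 0.20 at 1 to 5 RPKM to -0.17 at 100 to 1000 RPKM on the log2 scale. Below 1 RPKM, 60 of 1159 genes were called higher and 31 lower, where the added value of 1 RPKM leaves little room for a 2-fold change.

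The zones shared many of their most abundant messengers. Of the 10 genes with the highest mean in the EZ, from 5908 to 35440 RPKM, 2 were called lower in the DZ and 8 were not called. Of the 10 highest in the DZ, from 5580 to 32130 RPKM, 2 were called higher, and 6 genes stood in both groups of 10. Of the 100 highest genes of each zone 61 were shared. In the EZ group 30 were called lower and 2 higher, and in the DZ group 31 were called higher and 5 lower. Over all tested genes 17.8% were higher and 11.6% lower. The ranking uses the same values as the calls, which tilts the EZ group to falls and the DZ group to rises. The 10 highest genes of a library took 17.1%, 11.9% and 10.4% of its RPKM in EZ replicates 1, 2 and 3 and 13%, 10.7% and 9% in DZ replicates 1, 2 and 3. In both zones the share was largest in the library numbered 1 and smallest in that numbered 3, and the zones overlapped (exact permutation test, two-sided, p = 0.5).

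Each DZ library held more detected genes than any EZ library. At least 1 RPKM was reached by 17780, 17265 and 17871 genes in EZ replicates 1, 2 and 3 and by 18572, 18248 and 18969 genes in DZ replicates 1, 2 and 3. The zones did not overlap, and the exact two-sided permutation test gave p = 0.1, the smallest value that 3 against 3 libraries allow. Genes above 0 numbered 22054 to 22509 in the EZ and 22748 to 23346 in the DZ. Depth did not separate the zones, at 1.12, 1.14 and 0.955 times that of MZ replicate 1 in the EZ libraries and 0.934, 0.958 and 1.15 times in the DZ libraries.

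Of the 34673 rows, 10843 were listed at 0 in all 3 EZ libraries and 10235 in all 3 DZ libraries, nearly all of them removed by the filter on low values. Among the genes tested, 104 were listed at 0 in all 3 EZ libraries, and 36 of these reached at least 1 RPKM in all 3 DZ libraries, with a median of 6.84 RPKM and at most 72.5 RPKM in the DZ. Of the 36 genes, 22 were also listed at 0 in all 3 MZ libraries and 5 were at 1 RPKM or more in all of them. All of the 36 genes but those 5 needed their DZ libraries to pass the filter on low values. These counts thus describe the values and carry no test. In the other direction, 92 genes were listed at 0 in all DZ libraries, and 13 of these had at least 1 RPKM in all EZ libraries, with a median of 5.77 RPKM. Of these 13 genes, 11 were at 1 RPKM or more in all MZ libraries and 0 were listed at 0 in all of them. A value listed at 0 can also be a failed estimate, and no fold is given for these genes.

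The largest called rises were in genes at or near 0 in the younger zones. Ranking by the rise favours genes low in the EZ. The 2 named rises passed the filter on low values only through their DZ libraries, so their p-values are no separate support. Solyc04g014350.1 was listed at 0 in all 3 MZ libraries and at 3.78, 0 and 0 RPKM in EZ replicates 1, 2 and 3. In DZ replicates 1, 2 and 3 it was at 161, 621 and 102 RPKM. Its DZ libraries lay far above every other library, with DZ replicate 2 well above the other two. The log2 change was 7.02 ± 0.73 (SE, adjusted p = 6.55e-05 in limma). Few reads stood behind these values, 71, 280 and 55 in the DZ libraries and 2 in EZ replicate 1, as recovered from the RPKM values. The 2 reads gave 3.78 RPKM, whereas 1 read on the median gene was worth 0.0339 RPKM in that library. High RPKM in this gene thus came from few reads, as it did in the second largest rise. Per unit of depth, the reads of the DZ were 215 times those of the EZ, with an exact 95% interval of 59.2 to 1783 that covers counting error only, and the log2 change itself depends on the pseudocount.

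The second largest rise was that of Solyc04g014310.1, whose ID is close to the first. It was listed at 0 in the MZ libraries and in EZ replicates 1 and 3, and stood at 1.15 RPKM, from 1 read, in EZ replicate 2. In the DZ libraries it was at 82.8, 290 and 97.1 RPKM, from 59, 212 and 85 reads, and DZ replicate 2 was again the highest. The log2 change was 6.70 ± 0.46 (SE, adjusted p = 1.02e-05 in limma). By reads per depth the ratio was 378, with an interval of 67.3 to 14950 of the same kind. The labels do not say how reads shared between similar genes were counted, so the values of both genes are uncertain should they be copies of each other.

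The largest fall was that of Solyc07g008420.2. It stood at 263, 192 and 128 RPKM in the MZ and at 330, 404 and 211 RPKM in EZ replicates 1, 2 and 3. In the DZ libraries it was at 4.1, 2.51 and 2.2 RPKM. The gene was thus strongly expressed in both younger zones, and the DZ libraries lay close together far below them. It went from 315 ± 97.5 RPKM in the EZ to 2.94 ± 1.02 RPKM in the DZ (SD, n = 3), a log2 change of -6.31 ± 0.32 (SE, adjusted p = 3.53e-06 in limma). Between 1840 and 4220 reads stood behind its EZ values and 22 to 35 behind its DZ values.

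The second largest fall was that of Solyc04g015820.1. It stood at 827, 692 and 436 RPKM in the MZ, at 508, 566 and 368 RPKM in the EZ and at 12.7, 10.5 and 4.77 RPKM in DZ replicates 1, 2 and 3. The DZ libraries were the lowest, and the MZ and EZ libraries overlapped. It went from 480 ± 102 RPKM in the EZ to 9.3 ± 4.08 RPKM in the DZ (SD, n = 3), a log2 change of -5.61 ± 0.35 (SE, adjusted p = 6.65e-06 in limma). Its EZ values came from 626, 710 and 386 reads and its DZ values from only 13, 11 and 6.

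**Figure D3:**
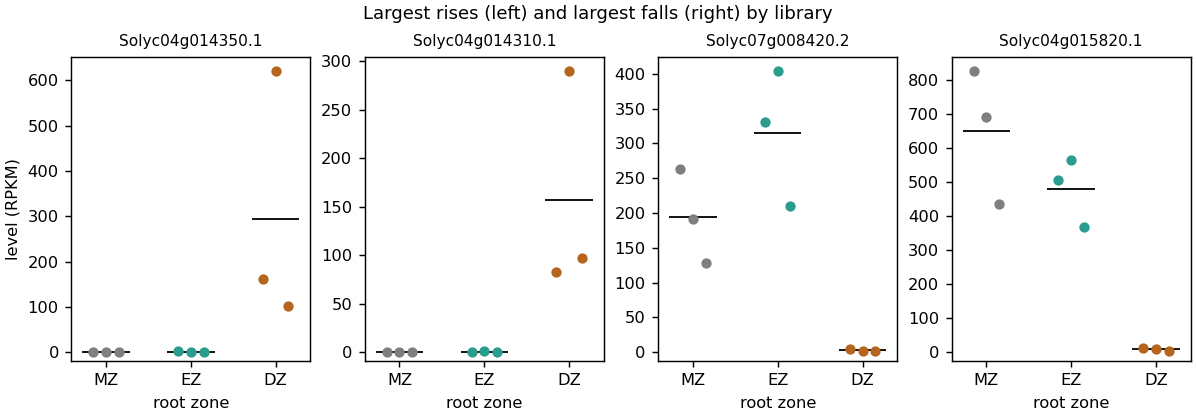
Level in RPKM of Solyc04g014350.1, Solyc04g014310.1, Solyc07g008420.2 and Solyc04g015820.1 in each MZ, EZ and DZ library. Points are libraries, ordered from replicate 1 to 3 within a zone, and lines are zone means. The first 2 genes stand at 0 to 3.78 RPKM outside the DZ, and the other 2 at 128 to 827 RPKM in MZ and EZ and at 2.2 to 12.7 RPKM in the DZ.

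The genes next in size are given without IDs. The rises ranked 3 to 10 by size had log2 changes of 6.01 to 6.38, zone means of 167 to 502 RPKM in the DZ, 1.24 to 8.02 RPKM in the EZ and at most 0.442 RPKM in the MZ. Of the 100 largest rises 86 had a mean under 1 RPKM in the MZ, and their median level went from 0.117 RPKM in the MZ to 2.65 RPKM in the EZ and 129 RPKM in the DZ. The falls ranked 3 to 10 had log2 changes of -5.50 to -5.12, with zone means of 59.5 to 2159 RPKM in the EZ and 0.339 to 55.1 RPKM in the DZ. The 100 largest falls had median levels of 75.3 RPKM in the MZ, 82.8 RPKM in the EZ and 3.49 RPKM in the DZ, and 4 of them had a mean under 1 RPKM in the MZ. The largest rises thus lay low in the MZ and the largest falls high in it, by their medians.

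The EZ libraries differed in how far they stood from the MZ and the DZ. On the line from the mean MZ (0) to the mean DZ (1), computed over the log2 values of all tested genes, EZ replicates 1, 2 and 3 lay at 0.465, 0.559 and 0.707, while the DZ libraries lay at 0.997 to 1.002 and the MZ libraries at -0.022 to 0.017, as their means define. EZ replicate 3 was nearest to the DZ, as the highest EZ library, in 2770 of the 3537 genes called higher (78.3%) and, as the lowest, in 1331 of the 2298 called lower (57.9%). EZ replicate 1 was nearest in 478 and 792 of them. How often each EZ library was the highest or lowest over all tested genes was not computed. The median standard deviation of a gene between libraries of a zone was 0.275 in the EZ, 0.191 in the DZ and 0.167 in the MZ on the log2 scale. Correlations across genes within the EZ were 0.94 to 0.971, within the DZ 0.968 to 0.972, and between EZ and DZ libraries 0.774 to 0.861, where genes are not independent replicates. Without EZ replicate 3, 3975 genes were called higher and 2627 lower. Whether the cuts fell at different places along the root was not tested.

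**Figure D4:**
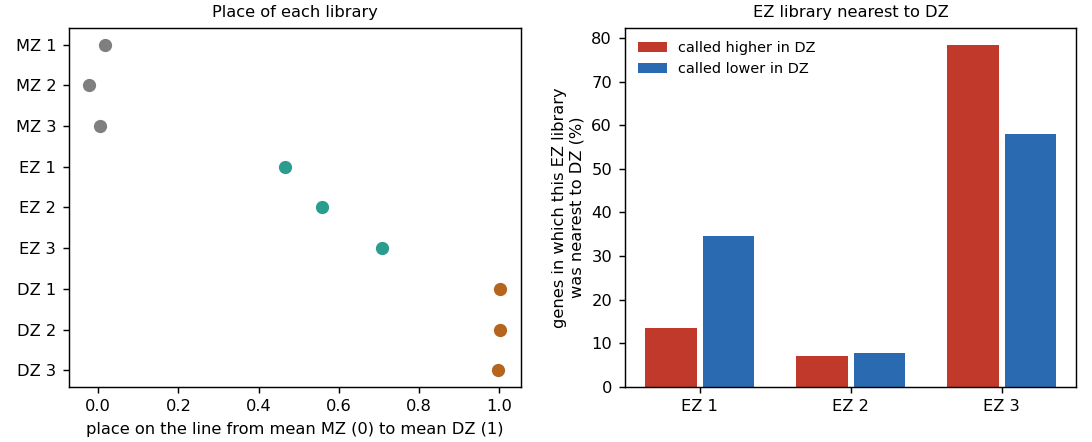
Left, place of each library on the line from the mean MZ at 0 to the mean DZ at 1. Right, percent of the genes called higher or lower in the DZ in which each EZ library was nearest to the DZ. EZ replicate 3 lies at 0.707 and is nearest in 78.3% of the genes called higher.

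Libraries of the same number were also compared pair by pair, as a description. Between EZ and DZ replicate 1, 4170 genes were at least 2-fold higher and 3184 at least 2-fold lower in the DZ. Between the libraries numbered 2 these counts were 3917 and 2808, and between those numbered 3 they were 3480 and 2067. A rise of at least 2-fold in all 3 of these pairs was seen in 2538 genes, 2522 of them among those called higher. A fall of that size in all 3 was seen in 1364 genes, of which 1359 were called lower. This left 71.3% of the called rises and 59.1% of the called falls with at least 2-fold in every pair.

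The number of reads behind a call differed widely between genes. Of the genes called higher whose reads could be recovered, which were 3298 of 3537, the median in an EZ library was 72.7 reads, and 618 (18.7%) averaged under 10 reads in the EZ. For those called lower the median in a DZ library was 154 reads, and 211 of 2071 averaged under 10. For these genes the size of the change rests on few reads in the lower zone.

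Calls were spread over the whole ID range. The digits after Solyc name the chromosome in the tomato locus system, with 00 for genes not placed on one. Over the 12 chromosomes, between 15.6% (chromosome 11) and 20.8% (chromosome 12) of tested genes were higher in the DZ, and between 10.3% (chromosome 1) and 13.8% (chromosome 6) were lower. Chromosome 12 had 278 rises among 1337 genes tested and chromosome 4 had 327 among 1652 (19.8%). These shares lay near the 17.8% and 11.6% of all tested genes, and no difference between chromosomes was tested. IDs whose last digit is 2 were tested in 81.7% of 15607 cases and IDs whose last digit is 1 in 37.4% of 19066, with rises in 16.7% and 19.8% of those tested.

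**Figure D5:**
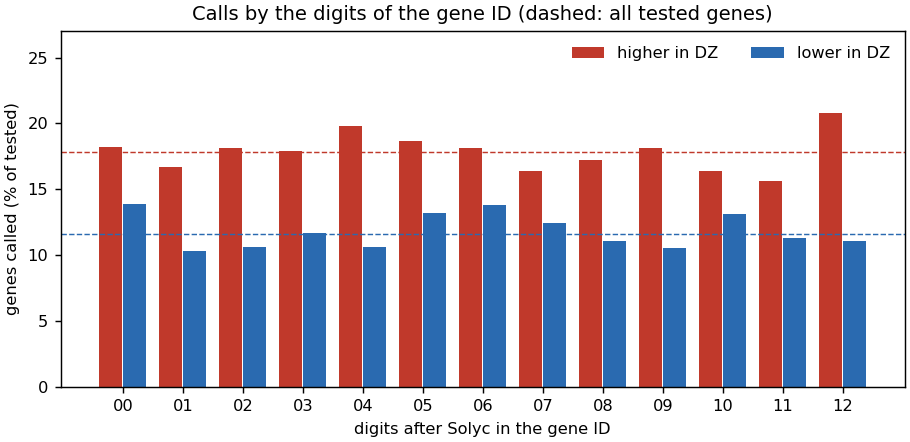
Percent of tested genes called higher or lower in the DZ by the digits after Solyc in the ID. Dashed lines give the percent over all tested genes, 17.8% and 11.6%. The bars for rises run from 15.6% to 20.8% and those for falls from 10.3% to 13.9%.

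Some IDs carry the same measurement. Among the genes tested, 531 had values identical in all 9 libraries to those of at least 1 other, in 246 sets of which 236 were pairs and the largest held 30 IDs. These sets held 79 of the genes called higher and 53 of those called lower, so their members do not count as separate measurements. With 1 row kept per set, an alternative chosen after seeing the data, 3497 of 19607 genes were called higher (17.8%) and 2271 lower (11.6%).

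Called genes could stand next to each other in the ID order, which was read with 1 row per set of identical values. Of 2468 genes called higher whose next listed gene was tested, that next gene was also called higher in 702 cases (28.4%), beside 17.8% of all tested genes. For falls these numbers were 298 of 1644 (18.1%), beside 11.6%. With every row kept the shares were 29.6% and 19.3%. Runs of at least 3 successive IDs all called higher numbered 118 and held 385 genes, and runs of falls numbered 41 and held 132. The longest run of rises held 7 genes, with a median level of 4.62 RPKM in the EZ and 34.2 RPKM in the DZ. The next runs were picked after their values were seen. A run of 5 genes on chromosome 12 had log2 changes of 3.58 to 5.44 and went from a median of 0.206 RPKM in the MZ to 27.1 RPKM in the EZ and 319 RPKM in the DZ. Another run of 5 on the same chromosome had log2 changes of 3.12 to 5.36, at 18.2 RPKM in the EZ and 206 RPKM in the DZ. The longest run of falls held 5 genes, with log2 changes of -1.65 to -1.05 and median levels of 55.9, 43.2 and 12.9 RPKM in MZ, EZ and DZ. Whether reads shared between neighbours enter the other values of these runs was not tested.

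Tomato plants were 6 days old, whereas those of the other 5 species with 3 zones were 4 days old, so species and age cannot be told apart. Fitted in the same way, the step from EZ to DZ called 29.3% of tested genes in tomato, in either direction. In the other species the share was 36.0% in Arabidopsis, 33.8% in maize, 19.8% in cucumber, 18.9% in rice and 0.00301% in soybean, where 1 gene was called. On the line from MZ to DZ the EZ libraries lay at 0.363 to 0.865 in soybean, 0.365 to 0.70 in Arabidopsis, 0.313 to 0.637 in rice, 0.473 to 0.655 in cucumber and 0.378 to 0.493 in maize, against 0.465 to 0.707 in tomato. Rises numbered 3537 and falls 2298 in tomato, 2377 and 932 in cucumber, 3857 and 3213 in Arabidopsis, 2069 and 1722 in rice, and 4304 and 4392 in maize. Each species has its own 9 libraries and differences between species were not tested.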

How the data were processed

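RNA of the tomato MZ, EZ and DZ (3 libraries each) was sequenced from Illumina TrueSeq libraries, per the labels' protocols. The submitters' processing notes name FastQC and TopHat2. The annotation was that of Ensembl release 19 for build SL2.4, per the labels. The counter, its strand setting, gene lengths and any filter: not given in the sources used here. The authors deposited RPKM values, 1 column per zone and number, with the species stacked in rows. Solyc rows were matched to the tomato libraries by zone and number.

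The test took the 19892 of 34673 genes that reached 1 RPKM in 3 or more of the 9 libraries, on log2(RPKM + 1) with limma 3.58.1 in R 4.3.3 (lmFit, contrasts, eBayes with trend and robust estimation, two-sided, Benjamini-Hochberg over all genes tested). Errors of log2 changes are limma's standard errors. The script was tested on simulated data. Other computing used Python 3.11.15 with NumPy 2.4.6, pandas 2.3.3, SciPy 1.17.1 and matplotlib 3.10.9.

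Relative depth came from ratios of values under 1 RPKM between libraries, which pile up where both hold equal reads. With it, values of 91.9% of tested genes were whole multiples of a unit, taken as 1 read, within 0.03 reads. Reads so recovered summed to between 11492156 and 14864908 per library, and 1 read on the median gene was worth 0.0325 to 0.0407 RPKM. In each library 18 to 27 values lay above 0 but under 0.0001 RPKM.

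Same-numbered EZ and DZ libraries deviated together from their zone means (correlation 0.182 to 0.314, against -0.159 to -0.077 for different numbers), so the numbers were taken to pair the libraries, a pairing read from the data. The reported test does not use this pairing, which enters a fit only as the replicate block among the alternatives. Deviations cancel out within a zone, so the negative values follow in part from the positive ones. Same-numbered MZ and EZ libraries had correlations of only 0.016, 0.063 and 0.035, and MZ and DZ libraries 0.245, 0.116 and 0.152. The IDs named are the 2 largest called rises and 2 largest called falls without overlap between zones. The comparison and the rules were chosen with earlier results of these data known. The planned keyword gene lists were not used, since no tomato annotation was at hand. The table of joint zones was not used here.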

Additional observations from a re-analysis of the deposited data

How the results depend on the processing

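Under 20 alternatives, 2 of them chosen after seeing the data, 0 of the genes called both there and in the reported test changed direction. Many of the alternatives could not show such a change. Other thresholds, other filters, the replicate block and leaving out MZ libraries all leave a gene's log2 change as it was. Counting only genes called in both fits also makes a reversal unlikely in the rest. With the replicate block 3575 genes were higher and 2307 lower, sharing 99.5% of the calls, and the block ended no call of a named gene. The block made the adjusted p in limma of each named gene larger. It was 0.00036 for Solyc04g014350.1, 5.69e-05 for Solyc04g014310.1, 3.52e-05 for Solyc07g008420.2 and 3.52e-05 for Solyc04g015820.1. Counts moved by over 1.5 times only with other thresholds, to 5553 and 4748 at an adjusted p under 0.05 in limma with no minimum fold, and to 1369 and 525 at an adjusted p under 0.01 and 4-fold. Leaving out each of the 9 libraries gave 2851 to 3975 higher and 2070 to 2627 lower genes. The share of rises among calls was 60.6%, and fell to 50.9% with quantile normalization and, among libraries left out, to 55% without DZ replicate 3. Of the 2 added later, leaving out the 3 libraries numbered 3 gave 2993 higher and 2657 lower genes, and 1 row per set of identical values gave 3497 and 2271. A pseudocount of 0.1 gave 3974 and 2687, no filter 3592 and 2270, a filter at 5 RPKM 2775 and 2141, and the 6 EZ and DZ libraries alone 3472 and 2248. On those 6 libraries the adjusted p in limma was larger than reported above for each named gene. It was 0.000846 for Solyc04g014350.1, 0.000247 for Solyc04g014310.1, 0.00012 for Solyc07g008420.2 and 0.000146 for Solyc04g015820.1. The 4 named genes kept their calls under the 18 alternatives run for each, with log2 changes of 6.26 to 9.32 for Solyc04g014350.1, 6.13 to 9.16 for Solyc04g014310.1, -6.70 to -6.10 for Solyc07g008420.2 and -5.87 to -5.24 for Solyc04g015820.1. These genes were picked as the largest called changes in the same data, so keeping their calls is no separate support. The first 2 rest on 0 to 2 reads per EZ library, so the size of their rise follows the pseudocount. Alternatives per gene list were not run, since no lists were made.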
